A study of Mus musculus with 34 samples.

Results

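The axon guidance ligands and receptors are 66 of the 18835 gene symbols named in the deposited peak tables. They were chosen by name alone, as every symbol of the ephrin (Efna, Efnb), Eph receptor (Epha, Ephb), semaphorin (Sema), plexin (Plxn), Slit, Robo, netrin (Ntn) and Unc5 families. Of these, 34 were counted as ligands and 32 as receptors. The name rule also took in Unc50, which is no guidance receptor, and Unc5cl, which is no netrin receptor. The place of a gene start was worked out as the point on which the summit and distance of at least 2 peaks agreed, and this placed 63 members among 16001 symbols. Efna4, Plxna3 and Plxnb3 had no such point.

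The series mapped FLAG-tagged coactivators by chromatin immunoprecipitation and sequencing in mouse tissue of embryonic day 11.5 and in embryonic stem cells (ESC). SMARCA4, the ATPase of the SWI/SNF remodelling complex, has lists from ESC and 7 tissues, namely heart, limb, face and, from the nervous system, forebrain, midbrain, hindbrain and neural tube. SMARCC2, another subunit, was mapped in face and hindbrain, and the acetyltransferase EP300 in face and ESC. NCOA1 and NCOA2, which assist nuclear receptors, were mapped in hindbrain. The FLAG samples carried a knock-in tag on a mixed 129/C57BL/6 background, and their genotype label names SMARCA4-FLAG also where another protein was tagged. Histone marks came from limb and forebrain of CD1 embryos, a different strain without a stated tag. Each embryonic sample pooled tissue of many male and female embryos, and each condition had 1 library. No difference below therefore has a replicate check, no p-value was computed, and library depth is unknown. The SMARCA4 lists held from 1513 peaks (midbrain) to 35099 (face), so counts are compared with all genes within a list. Intervals are exact binomial (Clopper-Pearson) intervals at 95% and cover counting error only.

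Guidance ligands steer growing axons and migrating cells by attraction or repulsion. Ephrins are membrane-bound and bind Eph receptor tyrosine kinases. Semaphorins bind plexins, with neuropilins as co-receptors of the secreted class 3. Slit proteins repel through Robo receptors, and netrins act through Dcc or, as repellents, through Unc5 receptors. Many of these genes also serve in blood vessels, heart and limb, where cells must sort or migrate. H3K4me3 marks gene starts, and H3K27me3 is the mark of Polycomb repression. Developmental genes often carry both marks at the start, a state known as bivalent. In pooled tissue, a start with both regions may be marked so in each cell or by different marks in different cells.

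The promoters shown first carry the contrast on which the start marks turn. Sema3a, a secreted repellent, had H3K27me3 within 1 kb of its start in forebrain and not in limb. Slit2, the Eph receptor Epha4 and the ephrin Efnb2 had it in limb and not in forebrain. Epha5 and Slit3 had it in both tissues. Robo4, a Robo family member known from blood vessels, had neither H3K27me3 nor H3K4me3 in either tissue. The sequences are the 250 bases before the start in the RefSeq promoter table of GRCm38.p6, 5′ to 3′, with CG dinucleotides in capitals. The peak lists are in mm9, so whether a RefSeq start is the same start as in the lists was not tested.
Sema3a: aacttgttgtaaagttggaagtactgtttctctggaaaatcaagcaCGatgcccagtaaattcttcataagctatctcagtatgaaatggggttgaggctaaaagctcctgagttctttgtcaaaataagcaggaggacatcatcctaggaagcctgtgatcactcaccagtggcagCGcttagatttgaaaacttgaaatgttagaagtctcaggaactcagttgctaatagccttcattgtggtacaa
Slit2: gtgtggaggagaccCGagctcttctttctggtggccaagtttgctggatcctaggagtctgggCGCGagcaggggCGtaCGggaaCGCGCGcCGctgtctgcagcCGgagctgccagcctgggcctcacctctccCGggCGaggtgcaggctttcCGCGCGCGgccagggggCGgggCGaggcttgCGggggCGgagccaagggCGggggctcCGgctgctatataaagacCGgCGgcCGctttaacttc
Epha4: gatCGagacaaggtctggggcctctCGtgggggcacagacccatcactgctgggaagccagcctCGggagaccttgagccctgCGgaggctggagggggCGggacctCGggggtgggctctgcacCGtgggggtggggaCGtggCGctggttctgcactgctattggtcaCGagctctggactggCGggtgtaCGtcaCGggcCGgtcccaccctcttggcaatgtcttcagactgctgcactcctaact
Efnb2: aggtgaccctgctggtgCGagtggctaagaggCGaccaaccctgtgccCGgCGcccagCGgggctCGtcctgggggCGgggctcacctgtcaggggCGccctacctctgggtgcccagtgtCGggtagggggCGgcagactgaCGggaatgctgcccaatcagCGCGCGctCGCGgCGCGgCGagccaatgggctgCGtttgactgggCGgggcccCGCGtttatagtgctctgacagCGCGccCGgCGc
Epha5: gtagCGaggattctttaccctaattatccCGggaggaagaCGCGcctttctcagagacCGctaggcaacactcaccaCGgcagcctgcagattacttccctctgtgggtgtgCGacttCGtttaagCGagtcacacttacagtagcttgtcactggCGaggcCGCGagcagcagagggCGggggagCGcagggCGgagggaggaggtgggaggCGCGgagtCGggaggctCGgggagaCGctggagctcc
Slit3: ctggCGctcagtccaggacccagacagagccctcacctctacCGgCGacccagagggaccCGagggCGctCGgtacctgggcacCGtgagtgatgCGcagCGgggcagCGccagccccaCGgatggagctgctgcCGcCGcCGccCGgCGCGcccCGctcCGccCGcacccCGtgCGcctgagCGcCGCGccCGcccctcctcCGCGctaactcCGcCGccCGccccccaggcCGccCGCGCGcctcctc
Robo4: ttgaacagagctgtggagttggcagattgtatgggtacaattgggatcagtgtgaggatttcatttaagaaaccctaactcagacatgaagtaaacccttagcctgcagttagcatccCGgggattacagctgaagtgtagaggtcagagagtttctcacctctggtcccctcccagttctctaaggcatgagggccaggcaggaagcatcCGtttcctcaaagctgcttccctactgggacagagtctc

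The Sema3a window is chr5:13396534-13396783 on the plus strand, with 2 CG pairs. The Slit2 window is chr5:47982905-47983154 on the plus strand, with 25 CG pairs. The Epha4 window is chr1:77515089-77515338 on the minus strand, with 14 CG pairs. The Efnb2 window is chr8:8661243-8661492 on the minus strand, with 27 CG pairs. The Epha5 window is chr5:84417383-84417632 on the minus strand, with 20 CG pairs. The Slit3 window is chr11:35121206-35121455 on the plus strand, with 35 CG pairs. The Robo4 window is chr9:37401722-37401971 on the plus strand, with 2 CG pairs. Slit3 thus had the most CG pairs of the promoters shown, and Sema3a and Robo4 had the fewest. RefSeq promoters were found for 57 of the 66 members, 54 of them with a placed start. These 54 had a median of 17 CG pairs in 250 bases, beside 15 for the 8145 placed genes in the promoter table. A GC box (GGGCGG on either strand) was in 77.8% of these members and in 63.2% of those genes. The letters TATAAA on either strand were in 3.7% of the members and in 8.42% of the genes. Among members with both marks in limb, the median was 19 CG pairs where forebrain also had both marks and 17.5 where forebrain had H3K4me3 alone. Their ranges, 4 to 46 and 9 to 32, overlapped.

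Within 1 kb of the start, guidance genes had H3K27me3 more often than all genes, and by more than they had H3K4me3. In forebrain this excess was not seen for regions that cover the start itself, as given below. In limb it lay within 1 kb of 39 of 63 member starts, which is 61.9% (interval 48.8% to 73.9%), beside 27.5% of all placed genes. In forebrain it lay at 23 starts, which is 36.5% (24.7% to 49.6%), beside 17.5% of all genes. H3K4me3 lay at 55 member starts in limb (72% of all genes had it) and at 54 in forebrain (70.7% of all genes). Both marks together were at 38 starts in limb, or 60.3% against 23.8% of all genes, and at 23 in forebrain, or 36.5% against 15.3%. H3K4me3 alone was at 17 member starts in limb (48.1% of all genes) and at 31 in forebrain (55.3%). Neither mark was at 7 in limb (24.4%) and at 9 in forebrain (27.2%). The excess was also there among starts that had H3K4me3. Of such member starts in limb, 69.1% (55.2% to 80.9%) had H3K27me3, against 33.1% of all genes. In forebrain the shares were 42.6% (29.2% to 56.8%) and 21.7%.

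**Figure D1:**
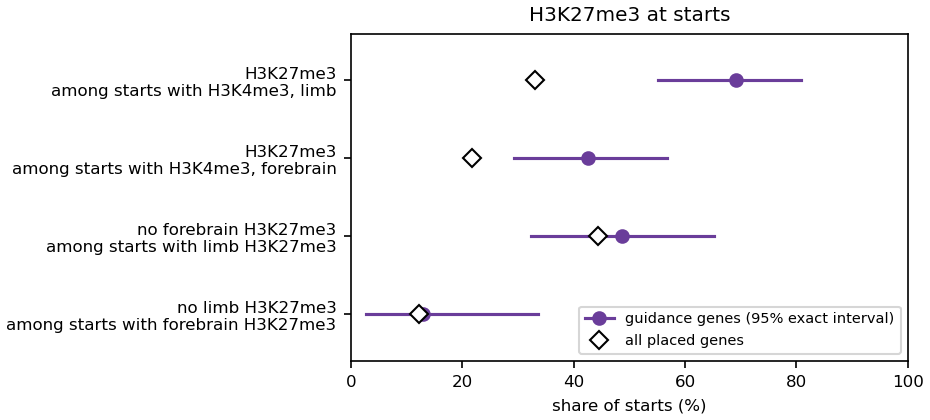
Share of gene starts (%) with or without H3K27me3 within 1 kb, for placed guidance genes (circles, lines are exact 95% intervals for counting error) and all placed genes (diamonds). Among starts with H3K4me3, guidance genes lie above all genes in limb (69.1% and 33.1%) and forebrain (42.6% and 21.7%). The shares of starts that lack the mark in the other tissue lie close together (48.7% and 44.3%, 13% and 12.3%).

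Among ligands, 22 of 33 placed starts had both marks in limb and 13 in forebrain. All 3 Slit genes had both in limb, as did 5 of 7 ephrins, 12 of 20 semaphorins and 2 of 3 netrins. Ntn1 and Ntn4 had both marks in both tissues, whereas Ntn2l had H3K4me3 alone. The ephrins Efna1 and Efna3, which lie 43.2 kb apart on chromosome 3, had both marks in both tissues. The class 3 semaphorins Sema3c, Sema3d and Sema3e, secreted cues, also had both marks in both tissues.

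Among receptors, 16 of 30 had both marks in limb and 10 in forebrain. Of the Epha receptors, 8 of 9 had both in limb and 4 in forebrain. Of the Ephb receptors, 1 of 5 had both in limb, Ephb1, and 0 of 5 in forebrain, by the best supported starts. Epha7 was the exception in limb, with H3K4me3 alone. The 3 placed class A plexins, which pair with neuropilins for Sema3 signals, all had both marks in limb. Neither placed class B plexin had H3K27me3 in either tissue. The netrin receptors Unc5c and Unc5d had both marks in both tissues.

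**Figure D2:**
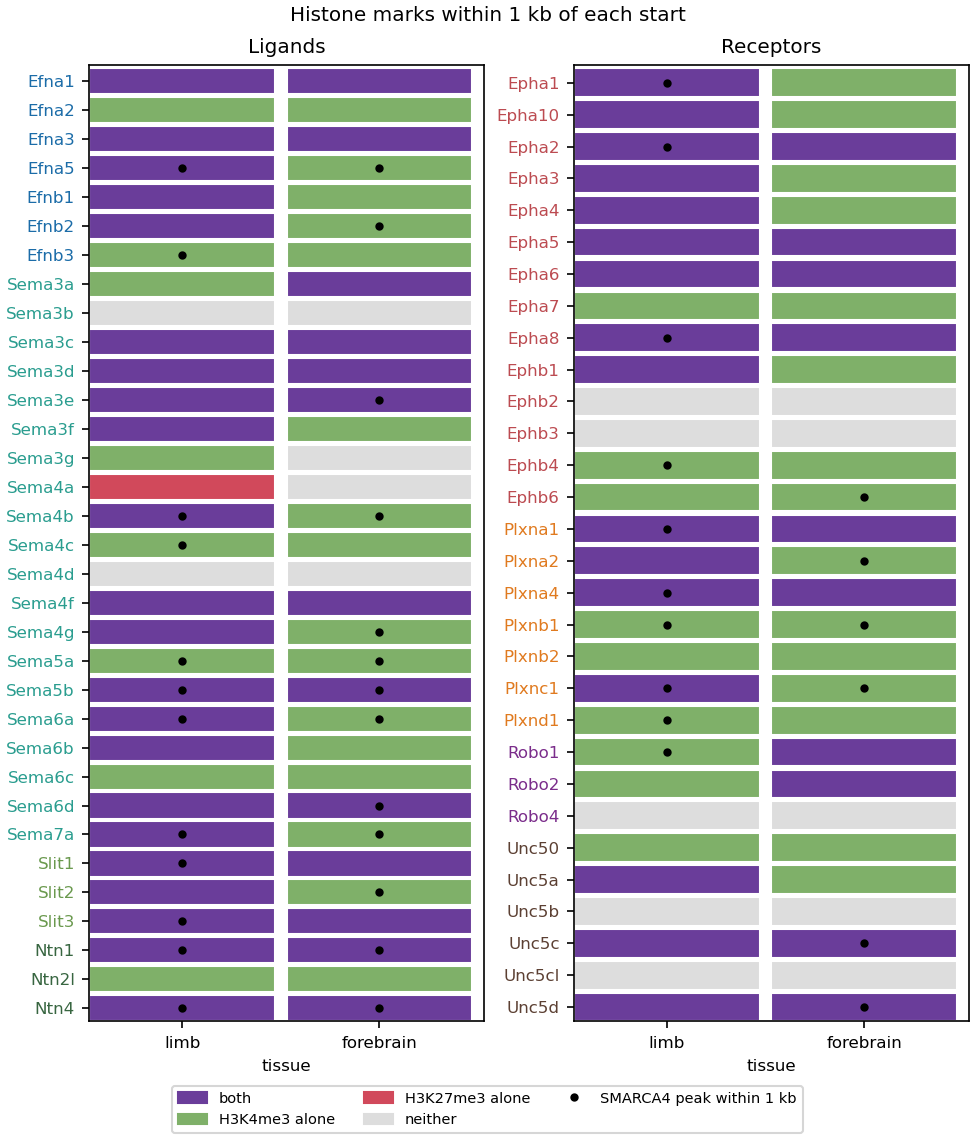
Histone marks within 1 kb of the start of each placed guidance gene in limb and forebrain. Cell colours give H3K4me3 with H3K27me3 (both), either alone or neither, black dots a SMARCA4 peak within 1 kb in the same tissue, and label colours the gene family. Both marks stand at 38 starts in limb and 23 in forebrain.

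The mark differed between limb and forebrain at 22 starts. It was in limb but not in forebrain at 19 starts, or 30.2% against 12.2% of all genes. These were the ephrins Efna5, Efnb1 and Efnb2, the semaphorins Sema3f, Sema4a, Sema4b, Sema4g, Sema6a, Sema6b and Sema7a, and Slit2. The receptors were Epha1, Epha3, Epha4, Epha10, Ephb1, Plxna2, Plxnc1 and Unc5a. It was in forebrain but not in limb at 3 starts, those of Robo1, Robo2 and Sema3a, or 4.76% against 2.14% of all genes. It was in both tissues at 20 starts (31.7%, all genes 15.3%) and in neither at 21 (33.3%, all genes 70.3%).

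By the 1 kb window, Slit2 and its receptors Robo1 and Robo2 thus had the mark in opposite tissues. Neither the Slit2 nor the Robo1 start was covered by a forebrain region, so between these genes the forebrain contrast rests on that window. The Slit2 start lay inside a limb H3K27me3 region of 3652 bp, and the nearest forebrain region was 1604 bp away. For Robo2 a forebrain region of 1493 bp covered the start, and the nearest limb region was 1130593 bp away. The Robo1 start was 702 bp from a forebrain region of 2162 bp and 12455 bp from a limb region. Sema3a was 164 bp from a forebrain region of 3193 bp and 582936 bp from a limb region. Epha4, which sorts motor axons in the limb, was 375 bp from a limb region, and its nearest forebrain region was 103021 bp away. Efnb2, an ephrin with roles in vessels and limb, was 185 bp from a limb region and 3254 bp from a forebrain region.

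Among genes that had the mark in a tissue, members and all genes lacked it in the other tissue at shares near each other. Of the 39 members with limb H3K27me3, 48.7% (32.4% to 65.2%) lacked it in forebrain, beside 44.3% of all genes with limb H3K27me3. Of the 23 with forebrain H3K27me3, 13% (2.78% to 33.6%) lacked it in limb, beside 12.3%. Both shares were near the background. The lists also differ in build, with 13137 limb and 11073 forebrain regions, of median width 2052 bp and 990 bp. At member starts the median width was 3698 bp in limb and 1493 bp in forebrain. A forebrain region lay between 1 and 5 kb from 9 of the 19 limb-only starts and over 50 kb away from 6 of them. Counting just regions that cover the start itself, 2 members had the mark in forebrain (3.17%, all genes 3.72%). In limb 30 members had it under this setting. The share of all genes for limb is not given here, so whether the limb excess holds under it is not read. The part of list width in the difference between the tissues was not tested further.

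For 13 members the peaks agreed on more than 1 start, and the best supported was used. The best supported starts of the receptors Ephb2, Ephb3 and Unc5b and of Sema4d had neither mark. Each of these genes had another start with H3K4me3 in both tissues. That other start also had H3K27me3 in limb for Ephb2, Sema4d and Unc5b, and in forebrain for Unc5b. With every start of a gene counted, both marks were at 42 members in limb (all genes 25.6%) and 25 in forebrain (16.8%).

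SMARCA4 lay within 1 kb of many of the same starts, in the tissues whose lists are rich in gene starts. In face 43 of 63 member starts had a peak (68% of all genes), and in neural tube 39 (48.3%). In limb there were 22 (23.5%), in forebrain 19 (24.9%), in hindbrain 13 (16.6%) and in heart 9 (17.6%). In ESC 1 member start had a peak, that of Plxna4 (5.94% of all genes), and in midbrain 0 of 63, which allows up to 5.69% by the exact interval (1.6% of all genes). By percentage points members were most above all genes in neural tube, with 61.9% (48.8% to 73.9%) against 48.3%, just below the interval. By ratio it was limb, with 34.9% (23.3% to 48%) against 23.5%, which the interval held. In limb, starts with both marks had a SMARCA4 peak in 15 of 38 members (39.5%, all genes in that state 34.5%). With H3K4me3 alone it was 7 of 17 (41.2%, all genes 30.1%). In forebrain the counts were 7 of 23 (30.4%, all genes 36.6%) and 12 of 31 (38.7%, all genes 32.6%). Of the starts with neither mark, 0 of 7 in limb (all genes 2.21%) and 0 of 9 in forebrain (3.4%) had one. A SMARCA4 peak was thus seen at member starts with and without H3K27me3, as at all genes. Each interval held the share of all genes, so no result about guidance genes is read from these counts.

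Plxnb1 and Sema6a had a SMARCA4 peak at the start in 6 of 8 tissues. Efnb2, Plxnc1, Sema5b and Sema7a had one in 5. A start peak in 5 or more tissues was thus at 6 members, 9.52% against 9.27% of all genes, which is near the background. The start peak of Sema5b ranked 19 in the neural tube list. In the midbrain input control the same start ranked 10, with 154 tags. Some control lists also held many member starts. The midbrain control had a peak at 45 starts (61.5% of all genes), the EP300 face control at 37 (61%) and the NCOA2 control at 19 (24%). The SMARCC2 hindbrain control had 3 (2.44%), and the NCOA1 and SMARCC2 face controls had 0 (2.39% and 0.225%). Without peaks that overlap any control or input list, the face count fell to 6 (all genes 7.05%), neural tube to 2, and forebrain to 0. SMARCA4 at these starts and control signal cannot be told apart with these lists.

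Within 100 kb to each side of the start, members had a median of 15 SMARCA4 peaks summed over the 8 lists, with 1 to 53, beside 14 for all genes. All 63 had a face peak (98% of all genes), 58 one in neural tube (89.9%), 48 in forebrain (71.5%) and 45 in heart (74.4%). In limb 43 had one (63.1%), in hindbrain 41 (58.8%) and in ESC 34 (61.1%). Each of these shares had an interval that held or touched the background, so no result about guidance genes is read from them. Midbrain was apart, with 23 of 63 members, or 36.5% (24.7% to 49.6%), against 19.7% of all genes.

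**Figure D3:**
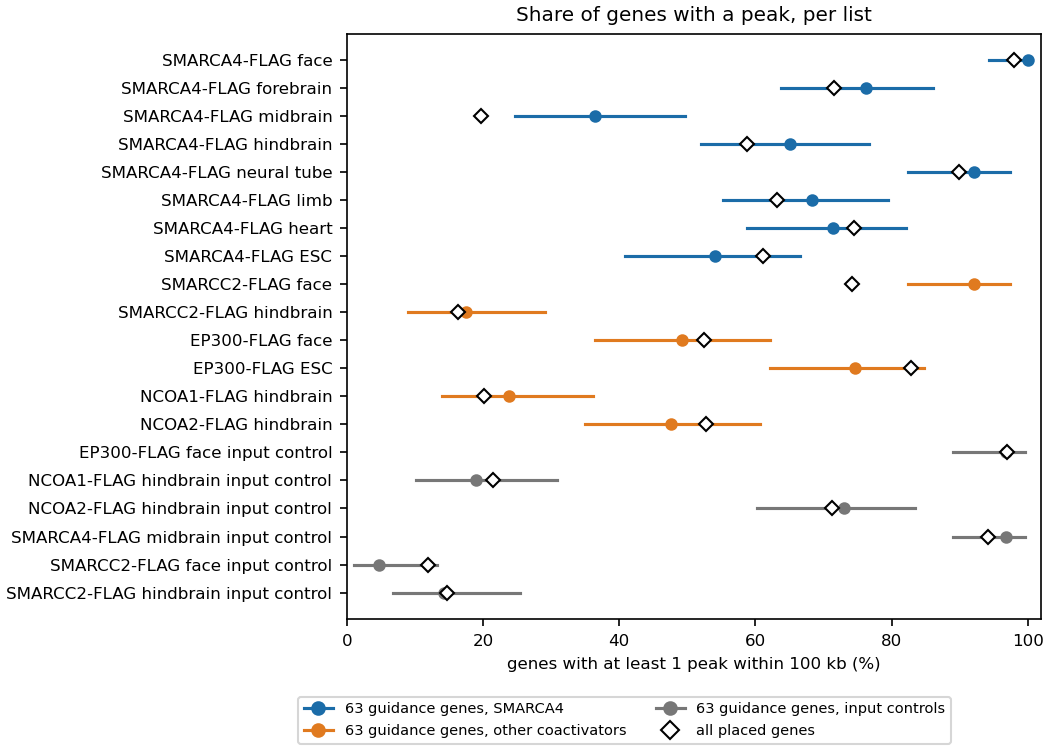
Share of genes (%) with at least 1 peak within 100 kb of the start, per list. Circles with exact 95% intervals (counting error) are the 63 placed guidance genes, and diamonds all 16001 placed genes. The circle and its interval lie above the diamond for SMARCA4 midbrain (36.5% and 19.7%) and SMARCC2 face (92.1% and 74.2%).

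Peaks in a territory need not belong to the guidance gene. The 543 merged SMARCA4 regions in member territories had a member as the nearest start in 234 cases (43.1%), and 98 lay within 1 kb of another gene's start. They were 45 within 1 kb of the member start, 57 from 1 to 10 kb and 441 from 10 to 100 kb. Of these regions 59.5% (55.2% to 63.6%) were in 1 tissue, against 68.5% of all 52768 regions, and 49.5% overlapped H3K4me3 of limb or forebrain, against 35.9%. In limb 0 of 77 regions were in that tissue alone, in heart 60 of 134 (44.8%), in ESC 33 of 56 (58.9%) and in face 180 of 385 (46.8%). Over all regions the shares were 1.66%, 54.2%, 68.6% and 55.1%, so the members' regions were no more often in 1 of these tissues than regions at large.

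**Figure D4:**
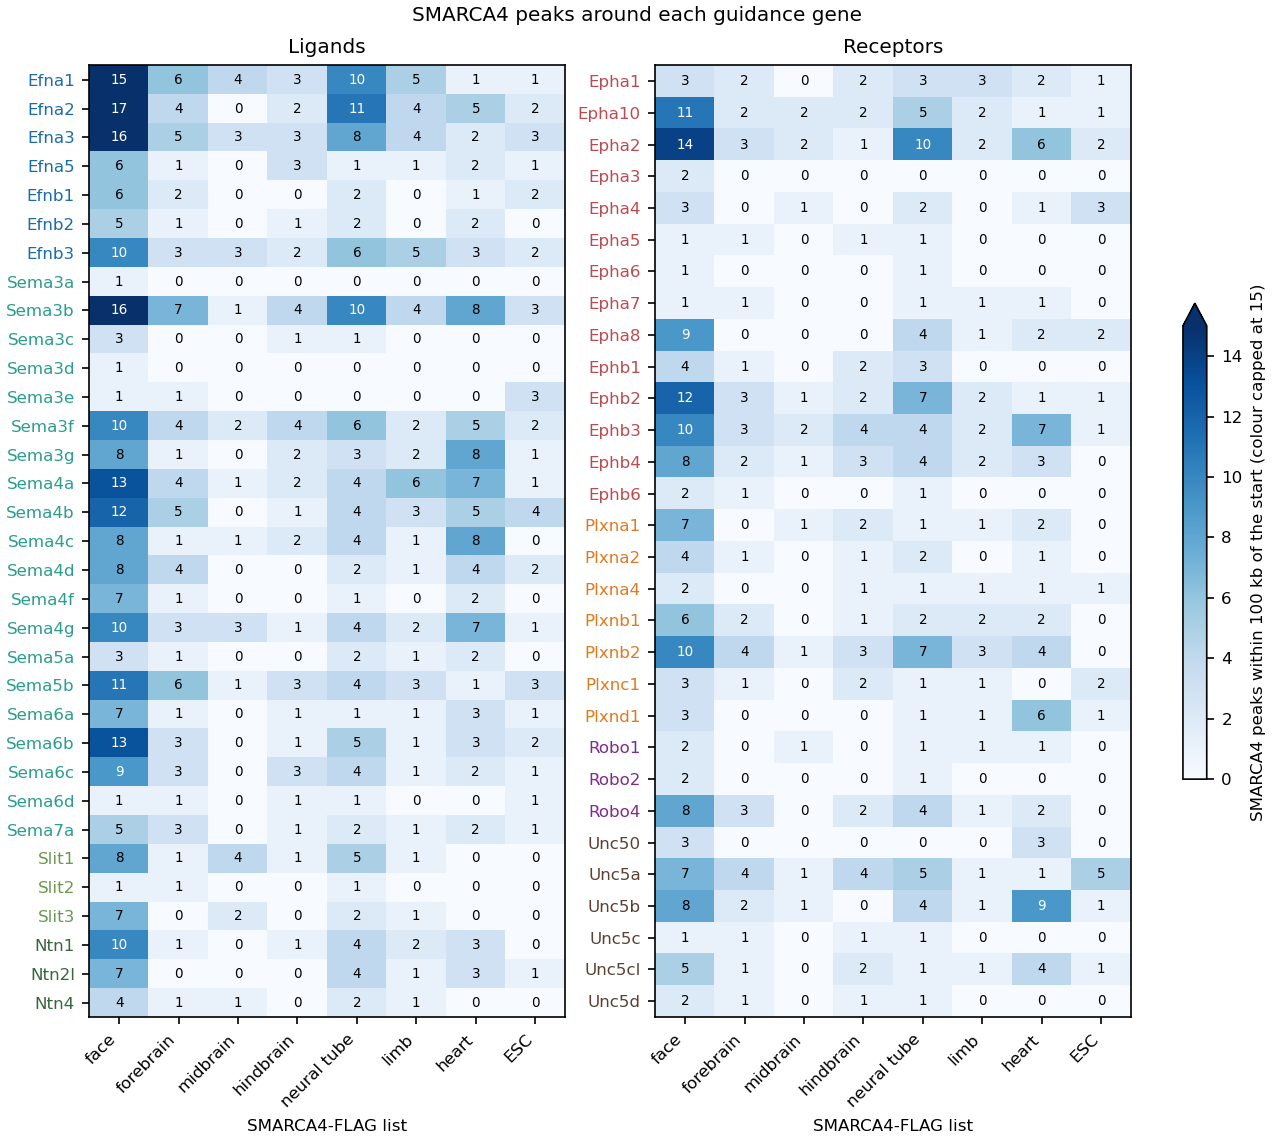
Number of SMARCA4 peaks within 100 kb of each placed guidance gene (rows, label colour by family) in each SMARCA4 list (columns). Sema3b has the highest sum (53), Sema3a and Sema3d the lowest (1 each, in face). The heart column is highest for Unc5b (9).

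The ligands with the most SMARCA4 peaks sat in gene-dense places. Counts are given in the order face, forebrain, midbrain, hindbrain and neural tube, then limb, heart and ESC. Sema3b, a secreted semaphorin, had 16, 7, 1, 4, 10, 4, 8 and 3 peaks. Efna2, an ephrin of the membrane-anchored A class, had 17, 4, 0, 2, 11, 4, 5 and 2. Face and neural tube were highest for both. Yet of 19 Sema3b regions 3 had Sema3b as the nearest start, and of 21 Efna2 regions 3 had Efna2. Efna1 had 15, 6, 4, 3, 10, 5, 1 and 1 peaks, and Efna3, its neighbour, 16, 5, 3, 3, 8, 4, 2 and 3. These neighbours shared regions, and 2 of 17 Efna1 regions and 2 of 20 Efna3 regions were nearest to the named gene.

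Sema4a, a transmembrane semaphorin, had 13, 4, 1, 2, 4, 6, 7 and 1 peaks, the highest limb count of all members. Sema3f had 10, 4, 2, 4, 6, 2, 5 and 2. The class 3 semaphorins split widely, with a median sum of 5 beside 28 for the class 4. Sema3a and Sema3d had 1 peak each, in face, and Sema3e had 1 in face, 1 in forebrain and 3 in ESC. The 3 ESC regions of Sema3e were in ESC alone, away from H3K4me3 and from control lists, at 7.4, 42.9 and 85.9 kb from the start. No control list came from ESC. Sema3e was the 1 member with more ESC than face peaks, a pattern of 1.67% of all genes.

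The Slit ligands had peaks in face, neural and limb lists and 0 in heart and ESC. Of all genes 74.4% had a heart peak and 61.1% an ESC peak, so with 3 Slit genes no trait of the family is read from this. Slit1 had 8 peaks in face, 1 in forebrain, 4 in midbrain, 1 in hindbrain, 5 in neural tube, 1 in limb and 0 in heart and ESC. Slit3 had 7, 0, 2, 0, 2, 1, 0 and 0, and Slit2 had 1 in face, 1 in forebrain and 1 in neural tube. All 8 regions around Slit3 and the 1 around Slit2 had the Slit gene as nearest start, and 7 of 12 around Slit1. The netrin Ntn1, the cue of the neural floor plate, had 10, 1, 0, 1, 4, 2, 3 and 0. Ntn2l had 7, 0, 0, 0, 4, 1, 3 and 1, and Ntn4 had 4, 1, 1, 0, 2, 1, 0 and 0.

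The midbrain peaks of members all lay more than 1 kb from the member starts. Summed over the members they numbered 40, with a peak near neighbouring members counted for each. That is a mean of 0.635 per gene against 0.265 for all genes, 2.39 times as many. A midbrain peak was near 12 of 33 ligands and 11 of 30 receptors. Efna1 and Slit1 had 4 each, and Efna3, Efnb3 and Sema4g 3 each. The Slit1 peaks lay 50 to 86.4 kb to the low-coordinate side of the start, with 20 to 68 tags. The region at 73.2 kb was shared by midbrain, hindbrain and neural tube SMARCA4 and by face SMARCC2, and by 0 controls. The regions at 49.7 and 55.4 kb were in midbrain alone and overlapped forebrain H3K4me1. The second of them also overlapped the EP300 face control. Of the midbrain regions in member territories, 19 of 36 overlapped a control or input list, against 43.7% of all midbrain regions. With peaks over a control or input list left out, 16 members (25.4%, interval 15.3% to 37.9%) had a midbrain peak, against 13.7% of all genes. The authors' deposited table gives all 36 distinct midbrain peaks of members a false discovery rate of 100%. The rate over the whole midbrain list is not given here.

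Among receptors, Epha2, an Eph receptor of epithelia, had 14 peaks in face, 3 in forebrain, 2 in midbrain, 1 in hindbrain, 10 in neural tube, 2 in limb, 6 in heart and 2 in ESC. Its element 9.9 kb from the start ranked 18 of the heart list, with 241 tags. Ephb3 had 10, 3, 2, 4, 4, 2, 7 and 1, and Ephb2 had 12, 3, 1, 2, 7, 2, 1 and 1. Ephb2 and Ephb3 thus differed most in heart, 1 against 7. The plexin Plxnb2, a receptor of class 4 semaphorins, had 10, 4, 1, 3, 7, 3, 4 and 0. Plxnb1 had 6, 2, 0, 1, 2, 2, 2 and 0, and Plxna1 had 7, 0, 1, 2, 1, 1, 2 and 0.

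Robo4 had 8, 3, 0, 2, 4, 1, 2 and 0 peaks, and 2 of its 9 regions had Robo4 as nearest start. Robo1 had 2 in face and 1 each in midbrain, neural tube, limb and heart. Robo2 had 2 in face and 1 in neural tube. Unc5a, a netrin receptor, had 7, 4, 1, 4, 5, 1, 1 and 5, the highest ESC count of all members. Unc5b had 8, 2, 1, 0, 4, 1, 9 and 1. Unc5cl had 5, 1, 0, 2, 1, 1, 4 and 1. Epha3 had 2 face peaks and 0 in the other 7 lists.

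Heart peaks were most numerous around Unc5b, followed by Sema3b, Sema3g and Sema4c. Unc5b, a netrin receptor of endothelium, had 9 heart and 8 face peaks, and Plxnd1, the receptor of Sema3e in vessels, had 6 and 3. They were the 2 members with more heart than face peaks, a pattern of 6.01% of all genes, so the count of such members is below the background. The 9 Unc5b heart peaks lay 2.4 to 28.4 kb from the start used, with 32 to 155 tags. Of the 15 Unc5b regions, 11 had Unc5b as the nearest start, and 9 of those 11 were in the heart list. The heart peak at 10.4 kb covers the other start of Unc5b, where the midbrain control also had a peak, with 74 tags. Plxnd1 differed, since 5 of its 6 heart peaks were 50.4 to 93.6 kb away and 3 of its 11 regions were nearest to it. At least 6 heart peaks were found around 9 members (14.3%, all genes 10.3%), which were Unc5b, Plxnd1, Ephb3, Epha2, Sema3b, Sema3g, Sema4a, Sema4c and Sema4g. Robo4, known from vessels, had 2 heart peaks, and Sema3e, the ligand of Plxnd1, had 0.

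Counting regions nearest to a member, outside H3K4me3 and in 1 SMARCA4 list, heart had 21 around 15 members (23.8%, all genes 20.7%) and ESC 13 around 10 (15.9%, all genes 18.1%). Of these, 0 overlapped a control or input list, beside 3.34% and 2.73% of such regions around all genes. No control or input list came from heart or ESC, so this 0 is no check on control signal there. Face had 60 around 30 members (47.6%, all genes 38.4%), 9 of them over a control. The heart and ESC shares were near the background, and the genes below are given as a description. Unc5b had 3 of the heart regions, and Ephb3, Ntn1, Sema5a and Sema6a had 2 each. The Unc5b regions lay 2.3, 14.7 and 28.3 kb from its start. Limb had 0. Of endothelial marker genes, 8 of 11 placed had a heart peak, at a mean 1.11 times that of all genes, against 3.62 times for heart markers. The part of endothelial cells in the heart peaks was not tested.

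**Figure D5:**
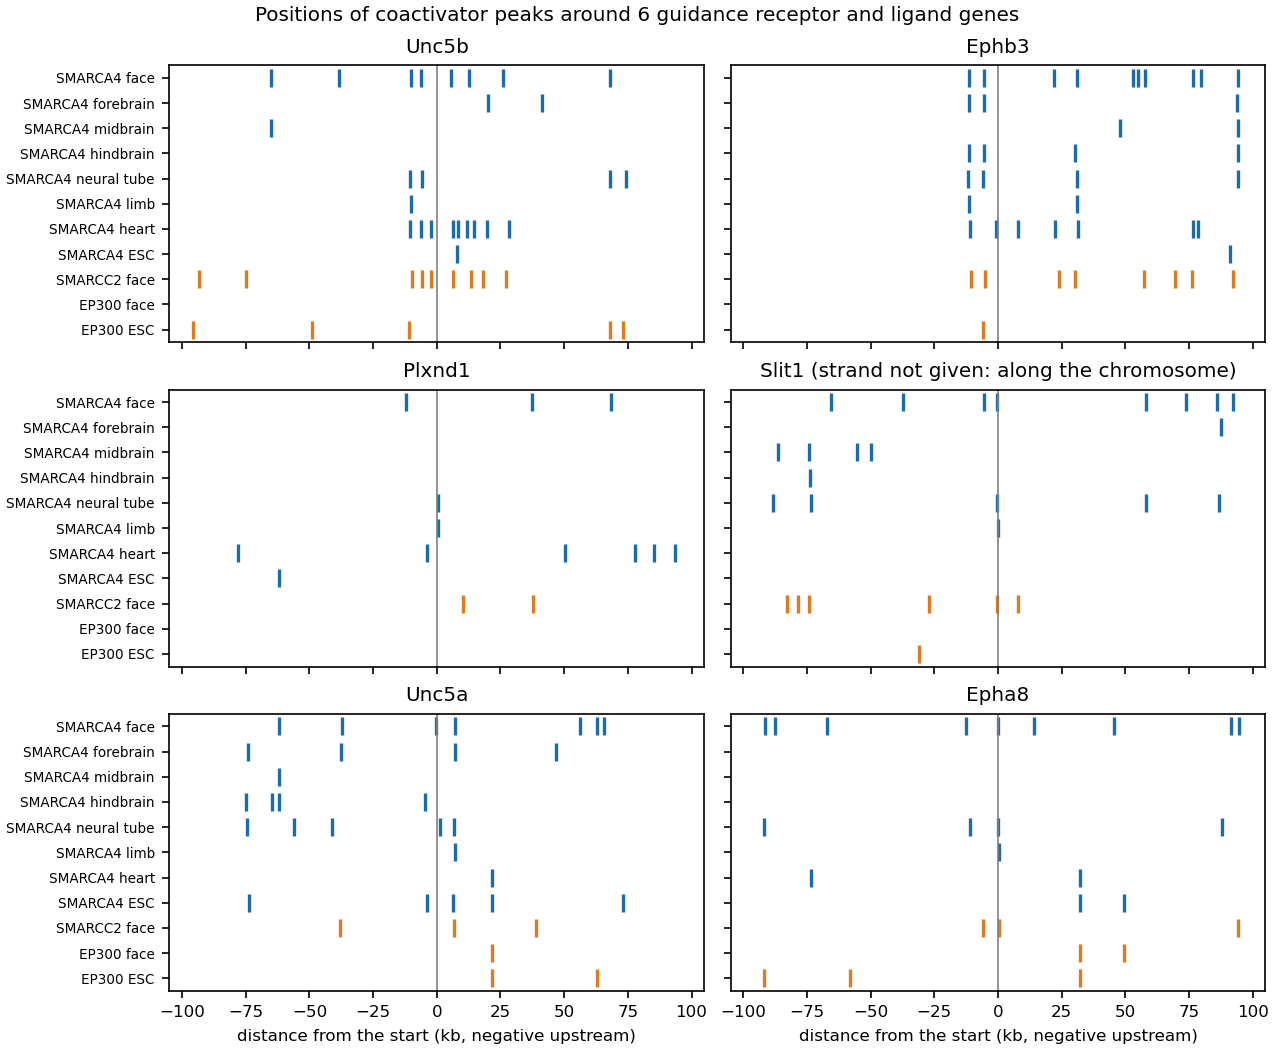
Peak positions within 100 kb of 6 guidance genes, as distance from the start in kb (negative upstream, for Slit1 along the chromosome), in the SMARCA4 lists (blue) and in face SMARCC2, face EP300 and ESC EP300 (orange). Heart peaks of Unc5b lie within 28.4 kb of its start, and the Unc5a mark at 21.6 kb and the Epha8 mark at 32.1 kb recur in SMARCA4 ESC and heart and in both EP300 lists.

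A pair of elements stood high in several lists at once. The Unc5a element lies 21.6 kb downstream of the start, at chr13:55071531-55073242 in mm9 as merged over the lists, with Unc5a as the nearest start. It ranked 10 in SMARCA4 ESC with 49 tags, 19 in EP300 face with 314 tags and 46 in EP300 ESC with 30 tags. It was also in SMARCA4 heart (rank 1563, 44 tags). In NCOA2 hindbrain (rank 2481) and NCOA1 hindbrain (rank 1371) it stood low, at 72% and 97% of the list. The false discovery rates there were 6.2% and 25.34%. The element was thus held by 6 of 14 FLAG lists and by 0 of the control and input lists. None of those control and input lists came from ESC or heart, so their lack of it says nothing of background there. It overlapped limb H3K4me1 and no other histone region. SMARCA4 face, the longest of the FLAG lists, did not hold it.

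The Epha8 element lies 32.1 kb downstream of the Epha8 start, at chr4:136480203-136481000. C1qa has the nearest start, 25842 bp away. It ranked 28 in EP300 face with 202 tags, 61 in SMARCA4 ESC with 31 tags and 83 in EP300 ESC with 25 tags, and it was in SMARCA4 heart at rank 5038. It overlapped limb H3K27me3, and no control or input list held it, though none of those lists came from ESC or heart. The deposited conservation score was 0 for it and 315 for the Unc5a element.

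A further shared element lay 47.1 kb from Sema5b, a transmembrane semaphorin, in SMARCA4 of face, hindbrain, neural tube, limb and ESC and in SMARCC2 face, with 0 controls. Near Sema4g, SMARCA4 ranked 10 in neural tube, 25 in limb, 52 in face and 233 in heart at 27.2 to 28.5 kb from the start. Of 16 Sema4g regions, 2 had Sema4g as the nearest start and 0 of those were in the heart list. The heart peak is therefore nearer to another gene's start. Overlap of this place with control lists is not given here. An element 70.1 kb from Ephb1 was in SMARCA4 of face, forebrain, hindbrain and neural tube and in SMARCC2 face, with 0 controls. The Sema5b and Ephb1 elements both overlapped H3K4me3 in limb and in forebrain. By contrast, a place 87.7 kb from the Robo4 start ranked 78 in NCOA2 hindbrain and also 354 in the EP300 face control, and 176 in the midbrain control.

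Of the other coactivator lists, SMARCC2 in face was above the background. It had a peak within 100 kb of 58 of 63 members, or 92.1% (82.4% to 97.4%), against 74.2% of all genes. At starts it had 16, or 25.4% against 20.7%. Its control had a peak at 3 members (11.9% of all genes). With peaks over any control or input list left out, 39 members (61.9%) kept a SMARCC2 face peak, against 40.6% of all genes. In the authors' deposited table, 45 members were named as the nearest gene of a peak, 71.4% of the placed members against 40.4% of all placed genes. Unc5b had the most, 9, and the strongest of these, 6.3 kb from the start, had 593 tags and rank 61. It lies where the heart SMARCA4 peaks of Unc5b lie.

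EP300 in face was near 31 members (52.5% of all genes) and in ESC near 47 (82.9%). NCOA2 was near 30 (52.8%), NCOA1 near 15 (20.1%) and SMARCC2 in hindbrain near 11 (16.3%). Their intervals held the background. Plxnb2 had 5 NCOA2 peaks, the most. The controls had a peak near 61 members for EP300 face (96.9%), 61 for midbrain (94.1%), 46 for NCOA2 (71.3%), 12 for NCOA1 (21.5%) and 9 for SMARCC2 hindbrain (14.7%).

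Other genes of the pathway were counted from a list of 23 co-receptors and cues, such as Nrp1, Dcc and Shh, and 40 intracellular effectors. Of the 22 placed co-receptors and cues, 14 had both marks at the start in limb (23.8% of all genes) and 10 in forebrain (15.3% of all genes). Of the 38 placed effectors, 12 had both in limb and 7 in forebrain, nearer to those shares. The effectors, which pass the signal to the cytoskeleton, had a heart SMARCA4 peak in 33 of 38 (74.4% of all genes), at a mean 1.79 times that of all genes. For co-receptors and cues the heart mean was 0.615 times that of all genes, with a peak near 10 of 22. The membrane receptors and cues thus had more starts with both marks than the effectors in these lists, a difference that was not tested.

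Markers of the sampled tissues gave a check of the labels. Heart markers had a median of 8 heart SMARCA4 peaks against 2 for all genes, and 8 of 9 placed ESC markers had an ESC peak (61.1% of all genes). Of 12 forebrain markers, 11 had a forebrain peak (71.5% of all genes) and 2 a hindbrain peak (58.8%), although the hindbrain sample has a tissue tag that says forebrain. Midbrain markers had a midbrain peak in 5 of 10 (19.7% of all genes). For the marker lists of face, limb, hindbrain and neural tube the mean in their own list was 0.858 to 1.41 times that of all genes, so by this measure these lists are weak checks. The ESC, forebrain and midbrain markers are given above by the share with a peak, a different measure. They were thus not shown to be stronger checks.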

How the data were processed

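BWA and mm9 are named in the submitters' processing notes. How peaks were called is not given in the sources used here. Each of the 30 lists used belongs to 1 library. Per the file headers, 16 deposited tables hold for each peak a count of tags, a score that is a multiple of the log10 of its p-value, and a conservation score. They also hold the authors' fold enrichment (a ratio), in some tables a false discovery rate (percent), and the nearest gene with its distance. The other 14 deposited lists give positions and ranks. Ranks of the tables were set here by that score, highest first. Controls for SMARCA4 in 4 tissues were not analysed here. What an input control is for the FLAG samples is not stated. The hindbrain SMARCA4 sample was kept by its title. The members and lists were chosen with earlier results of these data known.

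A gene start was the point given by summit and distance on which at least 2 peaks of 1 gene agreed. Peaks were placed by summit, or by midpoint without one, and counted within 100 kb and 1 kb. Histone regions counted when any base lay within 1 kb. Overlapping SMARCA4 peaks were merged. Named were the 3 members per family with the most SMARCA4 peaks, the top members of the FLAG lists (for NCOA1 and SMARCC2 in hindbrain many tied), members whose H3K27me3 differed between limb and forebrain, and members without a start. Further genes and elements were chosen after their values were seen. The steps were tested on simulated data. Python 3.11.15, numpy 2.4.6, pandas 2.3.3 and scipy 1.17.1 were used.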

Additional observations from a re-analysis of the deposited data

How the results depend on the processing

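Of 194 values recomputed under another setting, 122 moved by less than their interval or 1.5 times and 72 moved further. The 28 values recomputed with every start of a gene were among the 122. Shares below are of members with a peak, with all genes in parentheses. Within 50 kb they were 23.8% (11.7%) in midbrain, 50.8% (41.2%) in hindbrain, 55.6% (58.2%) in heart, 34.9% (42.3%) in ESC, 79.4% (56.1%) for SMARCC2 face, 34.9% (37.4%) for EP300 face, 11.1% (12.4%) for NCOA1, 33.3% (38.4%) for NCOA2 and 9.52% (12.6%) for the NCOA1 control. With each list cut to its top 1414 peaks they were 34.9% (23.2%) in face, 30.2% (24.6%) in forebrain, 27% (22.7%) in hindbrain, 46% (25.2%) in neural tube, 31.7% (24.8%) in limb, 12.7% (19.1%) in heart and 17.5% (18.9%) in ESC. They were 30.2% (17.9%) for SMARCC2 face, 27% (27.1%) for EP300 face, 19% (25.8%) for EP300 ESC and 25.4% (27.1%) for NCOA2. The controls of EP300 face, NCOA2 and midbrain gave 15.9% (23.7%), 20.6% (23.4%) and 22.2% (23.5%).

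Without peaks within 1 kb of the start the shares were 87.3% (93.2%) in face, 54% (61.1%) in forebrain, 50.8% (50.4%) in hindbrain, 66.7% (79.6%) in neural tube, 46% (52%) in limb, 79.4% (66.3%) for SMARCC2 face and 60.3% (74.7%) for EP300 ESC. The same 3 controls gave 82.5% (91.8%), 57.1% (61.5%) and 69.8% (85.5%). Without peaks over a control or input list they were 81% (82.1%) in face, 33.3% (22.3%) in forebrain, 39.7% (30.7%) in hindbrain, 47.6% (41.6%) in neural tube, 19% (11.4%) in limb and 61.9% (40.6%) for SMARCC2 face. They were 15.9% (12.7%) for EP300 face, 41.3% (45.5%) for EP300 ESC, 7.94% (5%) for NCOA1 and 9.52% (4.46%) for NCOA2. By the nearest gene in the authors' deposited table they were 14.3% (7.69%) in midbrain, 39.7% (27.7%) in hindbrain, 47.6% (41%) in heart, 33.3% (29.3%) in ESC, 71.4% (40.4%) for SMARCC2 face, 20.6% (21.1%) for EP300 face and 47.6% (48.7%) for EP300 ESC. They were 12.7% (7.91%) for NCOA1, 20.6% (20.9%) for NCOA2, 88.9% (85.7%) for the EP300 face control and 41.3% (35.5%) for the NCOA2 control.

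With the upper part of each histone list alone, both marks were at 15 member starts in limb and 9 in forebrain, forebrain H3K4me3 at 34, and H3K27me3 in forebrain but not limb at 5. With a region over the start itself, forebrain H3K27me3 and both marks in forebrain were at 2 starts each, limb but not forebrain at 29 and forebrain but not limb at 1. SMARCA4 starts without control peaks were 6 in face, 0 in forebrain, 1 in hindbrain, 2 in neural tube, 1 in limb and 2 in heart. Within 2 kb there were 3 in midbrain and 3 in ESC. These counts of starts stand here without the share of all genes, so no excess over all genes is read from them. Regions in 1 tissue were 67.2% (73.9%) with lists cut to 1513 peaks and 81.1% (86.5%) without control peaks. The cause of these moves was not tested. No paired analysis was possible because each condition has 1 library. Library depth is unknown, so a missing peak was not detectable at that library's depth rather than absent.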
